A study of Mangifera indica with 4 samples.

Results

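Locus 3 is a single numbered group of assembled transcripts in the flesh of Alphonso mango, and the 200 of its transcripts with the highest mean level are described here. They were chosen by the authors' deposited mean over all libraries, which left 449 other listed transcripts of the locus outside, among 30582 transcripts in the series. The samples are total RNA of mesocarp (the part that is eaten), either healthy or with spongy tissue, a disorder in which part of the flesh becomes soft, pale and corky while the fruit looks sound outside. Both conditions were sampled at table green (5 days after harvest) and mid ripe (10 days after harvest), with 1 library in each of the 4 groups. All fruit were of the cultivar Alphonso. The sources used here do not say how many fruit went into a library or whether they were pooled. A single library stands for each group, so the differences below could not be set against replicates and were not tested.

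Mango is a climacteric fruit, whose flesh turns starch into sugar, loosens its cell walls and builds up carotenoids after harvest in a course set off by ethylene. In a transcript assembly made without a genome, contigs that share sequence are gathered into a locus. Such a locus can hold splice forms of a gene, close members of a gene family, or transcripts of different genes joined through a shared stretch. The identifiers come without gene names or sequences, so it is not known which of these locus 3 is, and the labelled tissue could not be checked against markers. A full identifier reads Locus_3_Transcript_1736_2381_Confidence_0.036_Length_9327, which gives the locus, the transcript number, the count of transcripts in the locus (2381), a confidence value and the length in nucleotides. Transcripts are called by their transcript number below.

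The values are normalized levels, meaning reads divided by the size factor of their library, and they count reads per transcript without regard to its length. Total reads recovered were 52778924 (healthy, 5-day), 75039412 (healthy, 10-day), 62356300 (spongy, 5-day) and 56590758 (spongy, 10-day). The members had at least 404 reads in every library, so counting error was small beside the differences described. How a read that matches several transcripts was counted is not given. Transcripts of a locus share sequence, so the members are not independent of each other. In bulk tissue, fewer cells of a type and less RNA per cell cannot be told apart.

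With the authors' size factors most of the 200 transcripts stood nearly level in the 4 libraries, and a smaller set was far higher in healthy 10-day fruit than anywhere else. The highest level over the lowest was under 2-fold for 141 members (70.5%), where it was so for 50.2% of all 29539 transcripts with a mean level of at least 10. It was under 1.5-fold for 95 members (47.5%), against 24.0% of all transcripts. The other listed transcripts of locus 3 with such a mean level were under 2-fold in 69.6% and under 1.5-fold in 41.0%. The members were far more abundant than most of the transcripts they are set against, where counting error is larger. In 46 members (23.0%) healthy 10-day fruit lay at least 2-fold above the highest of the other 3 libraries, against 2.29% of all transcripts. The other 13 were neither level nor apart in a single library. No member had both healthy libraries at least 2-fold above or below both spongy libraries, or both stages so. The rule ranks by a mean that includes healthy 10-day fruit, so a transcript high in that library is more easily a member, and the shares are given as a description. With the 200 ranked on the other 3 libraries, 24 lay at least 2-fold and 20 at least 8-fold above in healthy 10-day fruit.

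**Figure D1:**
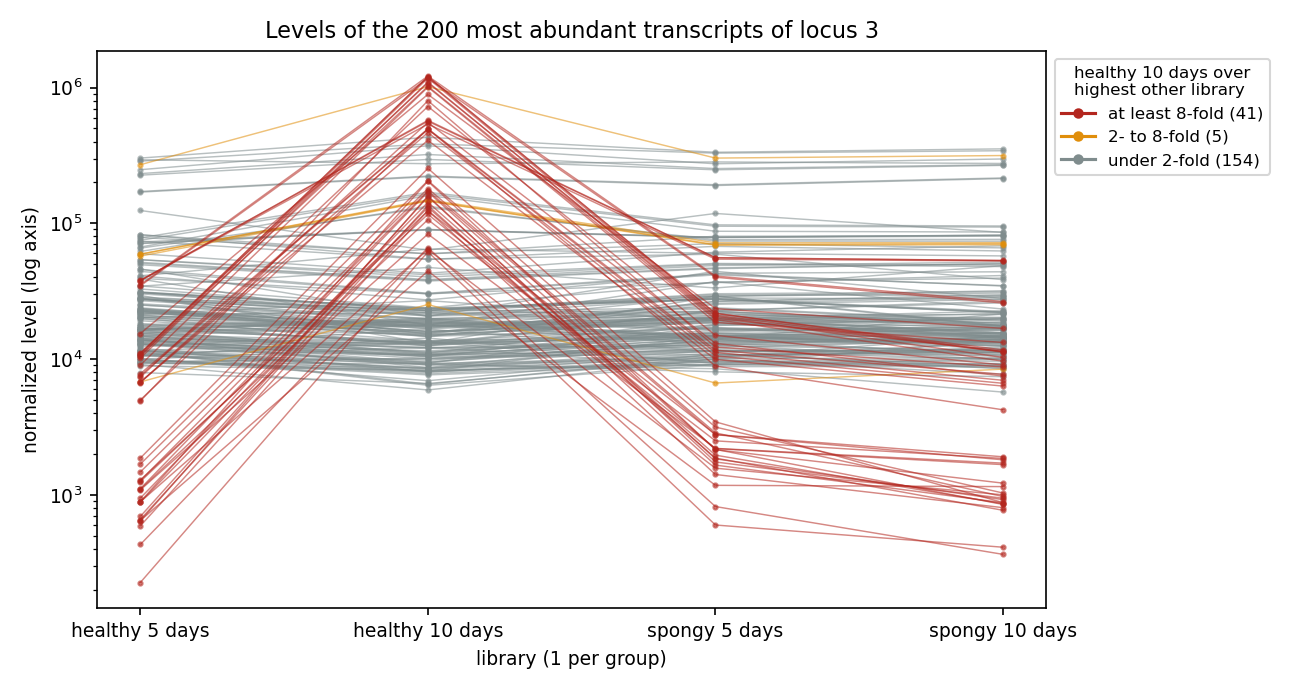
Normalized level (log axis) of each of the 200 members in the 4 libraries, 1 line per transcript, coloured by how far healthy 10-day fruit lies above the highest of the other 3 libraries. The 41 red lines peak in healthy 10-day fruit, between 44408 and 1214181. With the authors' size factors 141 of the 154 grey lines span less than 2-fold, and the other 13 span 2-fold or more.

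The 46 transcripts divided into 2 unequal sets with a gap between them, and the split at 8-fold was chosen after the values were seen. In 5 of them the excess over the highest other library was 2.07-fold to 3.21-fold. In the other 41 it was 9.88-fold to 103-fold, with a median of 54.1-fold. At least 8-fold was reached by 0.362% of all transcripts. At the lower end of the 41 stood transcripts 413, 411 and 412, at 9.88-fold, 10.1-fold and 10.3-fold, and the next one, transcript 2266, was at 29.2-fold.

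The 5 members with the highest mean level belonged to different sets. Transcript 1736 (9327 nt) had levels of 270051 in healthy 5-day fruit, 1013674 in healthy 10-day fruit, 302163 in spongy 5-day fruit and 315485 in spongy 10-day fruit. It was thus 3.75-fold higher in healthy fruit at 10 than at 5 days, with an exact (Clopper-Pearson) 95% interval for counting error of 3.74 to 3.77, while its other 3 libraries lay close together. Transcript 1733 (3674 nt) was the most read transcript of the locus in 3 libraries, with levels of 302167, 429735, 333467 and 353299 in the same order. Transcript 1745 (6258 nt) ran in parallel, at 286806, 384191, 328629 and 342421. Both counted as level, with the highest level 1.42-fold and 1.34-fold above the lowest. Transcripts 2247 (39807 nt) and 2266 (39874 nt) were of another kind. Transcript 2247 had levels of 35202, 1214181, 40894 and 26514, and was the most read transcript of the locus in healthy 10-day fruit. Transcript 2266 followed it closely, at 34605, 1170079, 40049 and 25837. From 5 to 10 days in healthy fruit they were 34.5-fold (34.2 to 34.8) and 33.8-fold (33.5 to 34.1) higher, and in spongy fruit both were lower at 10 than at 5 days.

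The flattest members spanned a wide range of levels. Transcript 1394 (18219 nt) stood at 293547, 274678, 283002 and 275784, a span of 1.07-fold. Transcript 2236 (11291 nt) had levels of 11564, 10769, 11670 and 10500, within 1.11-fold. Transcript 598 (18048 nt) had 21407, 21820, 19268 and 19725, within 1.13-fold. Healthy and spongy libraries overlapped in transcripts 1394 and 2236, and in transcript 598 both healthy libraries lay above both spongy ones. At the edge of the membership, transcript 860 at rank 200 had a mean level of 8512 and transcript 786, the first outside, one of 8502, and both were level, within 1.25-fold and 1.20-fold.

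The widest spans belonged to short or mid-sized transcripts with low levels outside healthy 10-day fruit. Transcript 1621 (1494 nt) had levels of 1865 in healthy 5-day fruit, 253880 in healthy 10-day fruit, 3447 in spongy 5-day fruit and 876 in spongy 10-day fruit. It was the one member that also stood at least 2-fold below the other 3 libraries in spongy 10-day fruit. Transcript 396 (541 nt) had 226, 61675, 599 and 411, and transcript 2369 (2564 nt) had 641, 158754, 1745 and 943. Their highest levels were 289.8-fold, 273-fold and 248-fold above their lowest.

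With the authors' size factors the 41 transcripts had an order of libraries in common, in which the level was highest in healthy 10-day fruit and next highest in spongy 5-day fruit. The second place did not hold in all 41 at equal read totals, where spongy over healthy fruit at 5 days ran from -0.57 to 0.67 on the log2 scale. The lowest level was in healthy 5-day fruit for 25 of them and in spongy 10-day fruit for 16. Their median level was 4908 in healthy 5-day fruit, 408463 in healthy 10-day fruit, 8880 in spongy 5-day fruit and 4229 in spongy 10-day fruit. The 154 members in which healthy 10-day fruit lay less than 2-fold above the highest other library had medians of 20115, 16780, 18810 and 16880, and of these 77 were lowest in healthy 10-day fruit while 37 were highest there. These medians follow in part from the choice of members, since 20 of the 41 remain among the 200 when healthy 10-day fruit is left out of the ranking.

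The first comparison asked how spongy flesh differed from healthy flesh at 5 days, on these transcripts. Spongy fruit had a level at least 2-fold higher in 15 of the 200 members (7.5%) and at least 2-fold lower in 0, where 14.7% and 9.46% of all 29316 transcripts compared were so (24.2% in either direction). The ratios were taken as log2 after 1 was added to each level. All 15 belonged to the 41 high in healthy 10-day fruit. With the 200 ranked without that library, 20 of the 41 stayed and 3 members passed 2-fold in this direction. The count of 15 thus rests in part on the choice of members. The median log2 ratio was 0.96 over the 41 (lowest 0.21, highest 1.44), 0.23 over the 5 and -0.07 over the 154, and all 41 were higher in spongy fruit on this scaling. Transcript 2369 was the highest, at 2212 spongy against 1178 healthy reads, which made its level 2.72-fold higher (2.54 to 2.92). Transcript 2365 (2040 nt) was next, 2.66-fold higher (2.48 to 2.85). The lowest were transcript 1448 (20098 nt), with levels of 59233 against 82344, and transcript 1824 (6264 nt), with 8492 against 11453, which stayed within 2-fold. Scaling the libraries to equal read totals instead moved the median over all transcripts to -0.76 on the log2 scale, and then 27 members were lower and 0 higher in spongy fruit by 2-fold or more. The 41 then had a median of 0.18, from -0.57 to 0.67, so their common direction at 5 days holds under the authors' factors and not under equal totals.

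At 10 days the 41 lay on the opposite side, which their choice by an excess in healthy 10-day fruit had set in advance. The same holds for the 5. Spongy fruit had a level at least 2-fold lower in 46 members (23.0%) and at least 2-fold higher in 4 (2.0%), where 11.9% and 17.8% of all 29059 transcripts compared were so (29.7% in either direction). The median log2 ratio was -6.58 over the 41, which is 95.6-fold, and ranged from -8.18 to -3.35. It was -1.07 over the 5 and 0.01 over the 154. Transcript 1621 stood at 972 spongy against 98807 healthy reads. Transcript 60 (303 nt) had levels of 849 in spongy against 170137 in healthy fruit, 200.4-fold lower (188 to 214). On the other side stood transcript 825 (3276 nt), at 19682 in spongy and 9319 in healthy fruit, and transcript 828 (10791 nt), at 26643 and 12888. These were 2.11-fold (2.04 to 2.19) and 2.07-fold (2.01 to 2.13) higher in spongy fruit, and both were lowest in healthy 10-day fruit and highest in spongy 10-day fruit. At equal read totals the median over all transcripts became 1.89 on the log2 scale, 154 members stood 2-fold or more above healthy in spongy fruit, and the 41 were still lower, by a median log2 ratio of -4.66. With members chosen on the 5-day libraries, which this comparison does not use, 24 of 200 were lower by 2-fold or more, a share near the background of 11.9%.

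**Figure D2:**
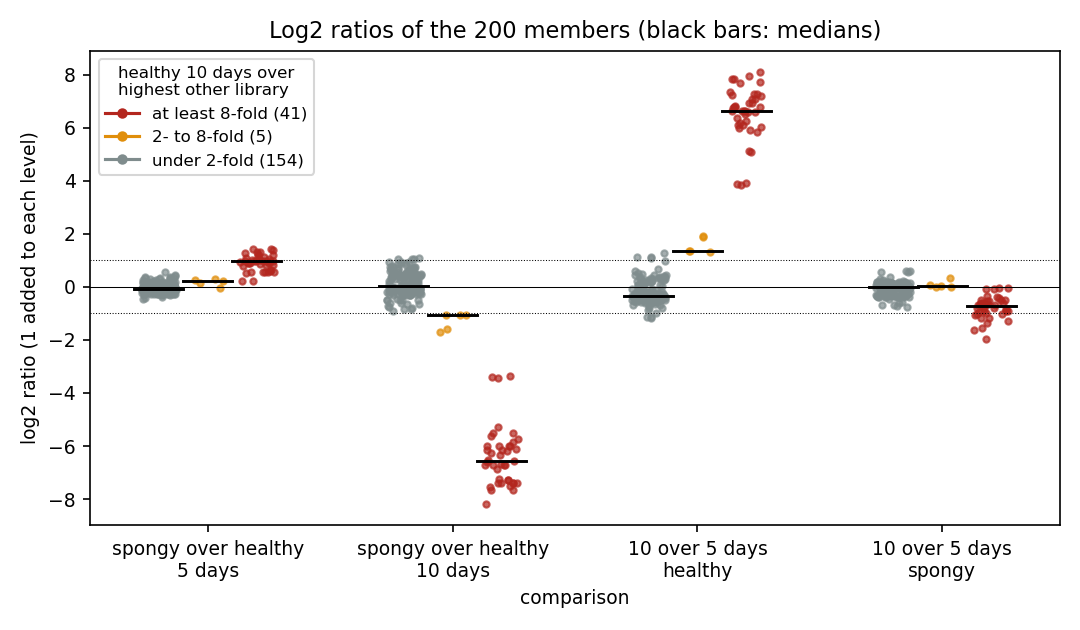
Log2 ratios of the 200 members in the 4 comparisons, 1 point per transcript, with black bars at the median of each set and dotted lines at 2-fold. The 41 red points lie between 0.21 and 1.44 for spongy over healthy 5-day fruit and between -8.18 and -3.35 at 10 days. These 41 were chosen for their excess in healthy 10-day fruit.

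The ripening of healthy fruit was compared next, and it shares the library of healthy 10-day fruit with the comparison above. At 10 days 50 members lay 2-fold or more above their 5-day level and 3 lay 2-fold or more below it, where 7.97% and 11.1% of all 28528 transcripts compared were so (19.1% in either direction). The 50 were the 41, the 5 and 4 more transcripts, and the 41 had a median log2 ratio of 6.63 (3.83 to 8.09), or 98.8-fold. That the 41 and the 5 were higher at 10 days was set by how they were chosen. Transcript 396 had 24003 reads at 10 and 415 at 5 days and was 273-fold higher (248 to 302). Transcript 2369 was 248-fold higher (234 to 262). Lower at 10 days were transcript 2263 (18263 nt), with levels of 13143 against 29401, and transcript 2265 (22777 nt), with 20689 against 46088. They were 2.24-fold (2.17 to 2.30) and 2.23-fold (2.18 to 2.28) lower in healthy fruit, and also lower at 10 days in spongy fruit, at 17297 against 28959 and 27905 against 44311. Over the 154 the median log2 ratio was -0.35. At equal read totals 157 members were lower at 10 days by 2-fold or more, with equal totals over locus 3 it was 149, and with equal totals outside loci 2 and 3 it was 92. With members chosen on the spongy libraries 29 were higher and 5 lower.

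In spongy fruit the stages were closer. None of the 200 members was at least 2-fold higher at 10 than at 5 days and 10 were at least 2-fold lower (5.0%), where 6.16% and 6.06% of all 29193 transcripts compared were so (12.2% in either direction). All 10 were among the 41, whose median log2 ratio was -0.73 (-1.97 to -0.03). With the 200 ranked without healthy 10-day fruit, 2 were at least 2-fold lower at 10 days in spongy fruit. The lowest were transcript 1621, with 972 reads at 10 and 4368 at 5 days, 3.93-fold lower (3.67 to 4.22), and transcript 1806 (2416 nt), 3.06-fold lower (2.86 to 3.27). The highest were transcript 1589 (6846 nt), with levels of 21521 against 14184, and transcript 1549 (6125 nt), with 13715 against 9182, both within 2-fold.

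The spread among the transcripts of this locus depended on whether healthy 10-day fruit took part. The standard deviation of the log2 ratio over the 200 members was 0.44 for spongy over healthy 5-day fruit and 0.41 for the stages of spongy fruit. It was 2.70 for spongy over healthy 10-day fruit and 2.79 for the stages of healthy fruit. Over all transcripts compared it was 1.23, 0.88, 1.46 and 1.02 in the same order. These reach down to a mean level of 10, far below the members, where counting error is larger. The standard deviations of the members rest in part on their choice by a mean that includes healthy 10-day fruit. With members chosen on the other pair of libraries, the values with healthy 10-day fruit were 1.87 and 1.94. With the 200 ranked without that library, the values that do not use it were lower too. They were 0.32 for spongy over healthy 5-day fruit and 0.29 for the stages of spongy fruit. The distance from the lowest to the highest member was 1.92, 2.58, 9.26 and 9.25 on the log2 scale. A common factor on a library shifts all members alike, so scaling has almost no bearing on these values.

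The ranking of the 200 members by level was likewise nearly the same in 3 libraries and different in the fourth, though less so within each set. Across the 200 members the log2 levels had a Pearson correlation of 0.98 for each pair among healthy 5-day fruit and spongy 5-day and 10-day fruit. With healthy 10-day fruit it was 0.01, 0.20 and 0.06. The Spearman (rank) correlation was 0.94 for each of the former pairs and 0.22, 0.37 and 0.20 with healthy 10-day fruit. Within the 154 the Pearson correlation with healthy 10-day fruit was 0.95, 0.95 and 0.94, and within the 41 it was 0.89, 0.92 and 0.85. The sets were divided on that library, so these values follow in part from the choice. Over every listed transcript of the locus the Pearson correlations with healthy 10-day fruit were 0.84, 0.87 and 0.85. These correlations are across transcripts that share sequence, libraries and length, and the members were chosen by the mean over these same libraries. Of the 10 most read transcripts of the locus, healthy 10-day fruit shared 1 with each of the other libraries, while those shared 9 or 10 with each other.

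Counted as a share of the reads of locus 3, the 200 members held 89.0% in healthy 5-day fruit, 96.9% in healthy 10-day fruit, 89.6% in spongy 5-day fruit and 89.2% in spongy 10-day fruit. The 41 transcripts held 4.73% (95% Wilson interval 4.72 to 4.74), 70.2% (70.2 to 70.2), 7.13% (7.11 to 7.14) and 5.14% (5.13 to 5.16) in the same order. The intervals cover counting error only, and the higher share of the 41 in healthy 10-day fruit follows in part from their choice by an excess there. The 154 held 78.1%, 21.4%, 75.7% and 76.9%, and the 5 held between 5.23% and 7.14%. Of all reads the locus as a whole took 25.4% in healthy 5-day and 14.7% in healthy 10-day fruit. It took 15.6% in spongy 5-day and 14.7% in spongy 10-day fruit. Locus 2 took 21.6%, 72.3%, 51.3% and 51.0% in the same order.

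**Figure D3:**
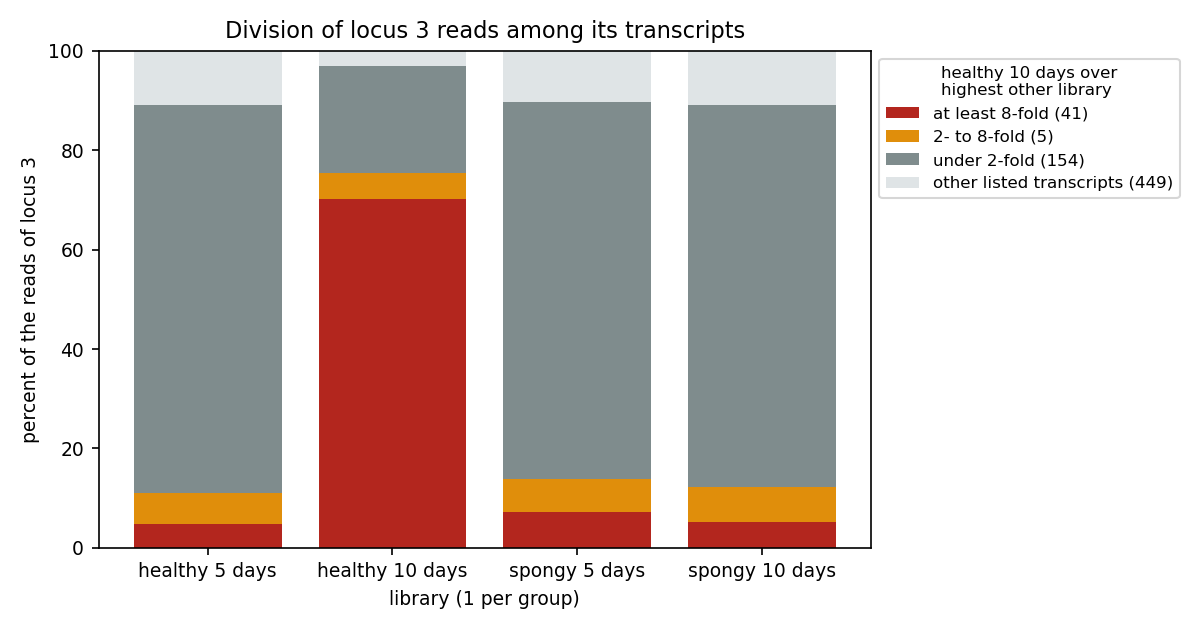
Division of the reads of locus 3 in each library among the 41, the 5 and the 154 members and the 449 other listed transcripts, in percent of the locus. The 41 transcripts, chosen for their excess in healthy 10-day fruit, take 70.2% there and between 4.73% and 7.13% in the other 3 libraries.

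The members of like behaviour stood next to each other in the numbering of the assembly. When members whose numbers were at most 10 apart were joined, 184 of the 200 fell into 33 runs of 2 or more. Of these runs 5 held transcripts from the set of 41 and no others, 27 held none of them and 1 was mixed. The 5 runs covered the numbers 58 to 71 (6 members), 411 to 421 (9), 1621 to 1627 (2), 1774 to 1813 (15) and 2365 to 2380 (6). The mixed run, 2234 to 2285, had 24 members, of which 22 lay under 2-fold and the other 2 were transcripts 2247 and 2266. Between members next to each other by number the median absolute difference of the log2 ratio was 0.15 for the stages of healthy fruit, and between all pairs of members it was 0.78. For spongy over healthy 5-day fruit these values were 0.09 and 0.31. Transcripts 1711, 1712 and 1713, with lengths of 1189, 1191 and 1181 nt, show how alike neighbours could be, at 71206, 70829 and 72845 in healthy 5-day fruit and 89220, 89916 and 90044 at 10 days. The runs and these 3 transcripts were picked out after their values were seen.

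**Figure D4:**
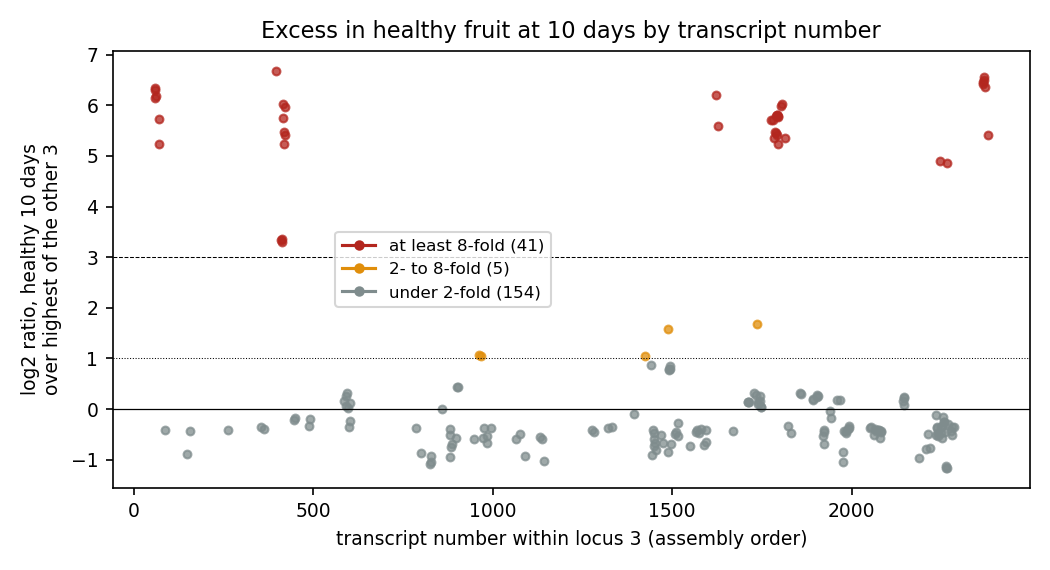
Log2 ratio of healthy 10-day fruit over the highest of the other 3 libraries against the transcript number within locus 3, 1 point per member, with lines at 2-fold (dotted) and 8-fold (dashed). The 41 red points stand in clusters of neighbouring numbers and nothing lies between 3.21-fold and 9.88-fold.

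Within a run the size of the excess still varied. In the run from 411 to 421 the log2 ratio of healthy fruit at 10 over 5 days went from 3.83 to 7.35. Transcript 412 (6308 nt) had levels of 37817, 572970, 55806 and 53204 there. In the run from 1774 to 1813 the range was 5.85 to 6.93, and in the run from 2365 to 2380 it was 6.37 to 7.95. The run from 58 to 71 consisted of short transcripts of 264 to 495 nt, with ratios of 6.10 to 7.26. With the authors' size factors its transcripts 59 and 63 met a further pattern. Healthy 10-day fruit and spongy 5-day fruit were both at least 2-fold above the other pair of libraries. They passed narrowly, with log2 ratios of spongy over healthy 5-day fruit of 1.07 and 1.05, where transcript 60 had 0.96. At equal read totals 0 members were at least 2-fold higher in spongy 5-day fruit, so neither met the pattern then. Transcript 63 had levels of 946 in healthy 5-day fruit, 142821 in healthy 10-day fruit, 1959 in spongy 5-day fruit and 858 in spongy 10-day fruit.

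The members were ranked on reads not corrected for length, and the lengths of the sets are given as a description. The 41 had a median length of 3682 nt (264 to 39874), with 8 under 1000 nt. Only 20 of the 41 stay members when healthy 10-day fruit is left out of the ranking, so these lengths rest in part on that library. The 154 had a median of 14376 nt (1181 to 43906), with none under 1000 nt. On the scale of level per 1000 nt, which allows transcripts of different length to be compared, the 41 had medians of 884 in healthy 5-day fruit and 83653 in healthy 10-day fruit, and of 1596 and 1009 in spongy 5-day and 10-day fruit. The 154 had 1689, 1280, 1584 and 1525 in the same order. The lowest of the 41 in healthy 10-day fruit had 25360 per 1000 nt, a value that 11 of the 154 and 1 of the 5 also reached, as many as in each of the other 3 libraries. The highest level per 1000 nt of all was that of transcript 60 in healthy 10-day fruit, 561507, against 3660 in healthy 5-day fruit.

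**Figure D5:**
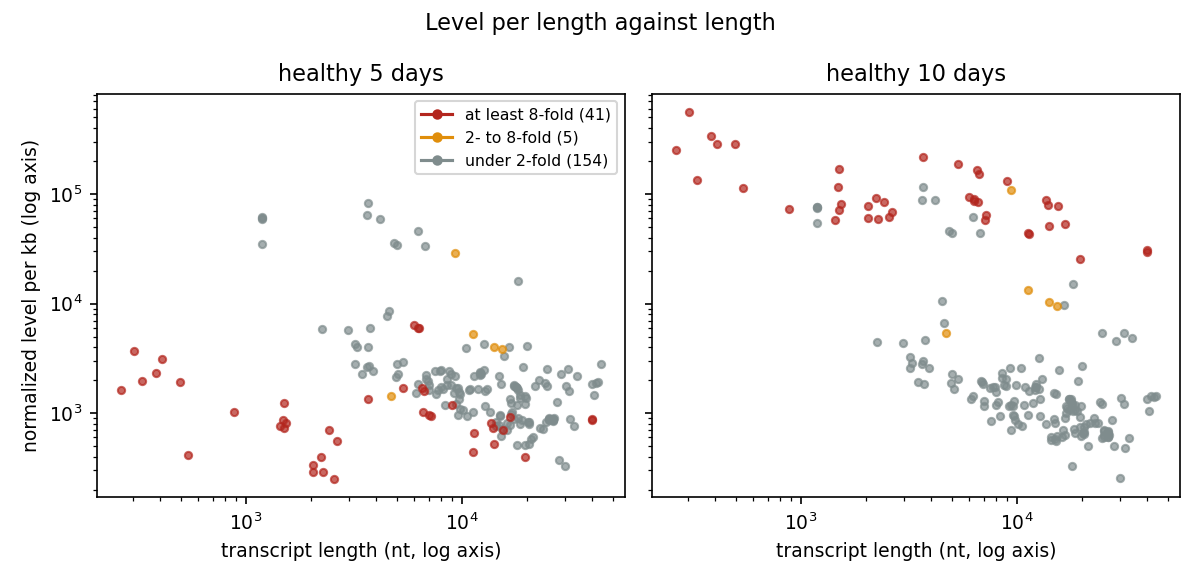
Normalized level per 1000 nt against transcript length (both log axes) in healthy 5-day fruit (left) and at 10 days (right), 1 point per member. The red points are the 41 chosen for their excess at 10 days, and the lowest of them there lies at 25360.

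The members that were neither level nor apart in a single library had milder differences. Transcripts 1493 (31126 nt) and 1492 (34150 nt) were the most abundant of these 13. Transcript 1493 had levels of 78206 in healthy 5-day fruit, 169276 in healthy 10-day fruit, 97345 in spongy 5-day fruit and 95510 in spongy 10-day fruit. Transcript 1492 had 74951, 164713, 95145 and 93784. Both were highest in healthy 10-day fruit, by less than 2-fold over the next library.

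Which members count as level rests on the scaling of healthy 10-day fruit, whose size factor was 0.389 against 1.84, 1.27 and 1.11 in healthy 5-day fruit and spongy 5-day and 10-day fruit. With the same total per library 2 members were level, 154 lay at least 2-fold below the other libraries in healthy 10-day fruit, and the 5 mild members were lower there than in healthy 5-day fruit. The 41 remained at least 2-fold above the other 3 libraries under each scaling tried, by a median log2 ratio of 3.79 with the same total per library and 5.76 with the authors' factors. In the authors' deposited tables, made with DESeq2, 0 of the 200 members had an adjusted p under 0.05 in any comparison, as was the case for 0% of all transcripts. An unadjusted p under 0.05 was listed for 32 members for spongy against healthy 10-day fruit and for 32 for the stages of healthy fruit, against 2.18% and 1.33% of all transcripts. For the other 2 comparisons it was listed for 0 members, against 1.74% at 5 days and 0.406% in spongy fruit. The lowest adjusted p of a member in those tables was 0.827. These p-values rest on 1 library per group. The members were ranked on a mean that includes healthy 10-day fruit. A low unadjusted p was thus more easily listed for members in the 2 comparisons that use that library. The counts of 32 are given as a description. For the log2 fold changes of the authors' deposited table the listed standard error had a median of 3.09 over the 41 and 0.47 over the 154 for the stages of healthy fruit.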

How the data were processed

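The authors deposited 4 comparison tables that list the same 30582 transcripts and hold no per-library column. CASAVA 1.8.2, Bowtie2 2.2.3 and DESeq2 were used, per the submitters' processing notes. Nothing is said there of the assembly, the read counter or the model. Per the file headers, the authors deposited a mean normalized count (a signal averaged over the libraries), a log2 fold change with its standard error, a test statistic (a score), a p-value and an adjusted p-value.

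The level in each library was solved from the mean and the fold changes, which closed around the tables to within 4.8e-14. With fold changes read as first-named over second, 99.98% of the 103978 values below 1000 reads came within 0.05 of whole. In the opposite reading 9.82% did. Of the 17594 values of 1000 reads or more, 94.6% did in the first reading. Values under 0.35 read were set to 0. Size factors came from the steps between values and the median of ratios of the whole reads. Log2 ratios had 1 added to each level, and a fold of 2 was counted. The steps were tested on simulated data.

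Transcripts named are the 5 with the highest mean, ranks 200 and 201, the 2 highest and 2 lowest in each comparison, the 3 flattest and 3 widest, the leader of each library, and the 2 most abundant of each pattern. The members and these rules were chosen with earlier results of these data known. Of the transcript numbers 0 matched the 38372 genes of the RefSeq table for CATAS_Mindica_2.1. Other settings were added values of 0.5 and 10, other scalings (same total, same total outside loci 2 and 3 or over locus 3, TMM), folds of 4 and 1.5, other choices of members, background minimums of 0 and 50 and the authors' adjusted p. Computations ran in Python 3.11.15 with pandas 2.3.3, numpy 2.4.6 and scipy 1.17.1, and plots in matplotlib 3.10.9.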

Additional observations from a re-analysis of the deposited data

Results flagged for a closer look

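In 15 members spongy over healthy fruit turned direction between the stages: the level in spongy fruit was 2-fold or more above healthy at 5 days and 2-fold or more below it at 10 days. No member had the reverse. Across all 29539 transcripts with a mean level of at least 10, 300 were so and 118 had the reverse. The stages turned direction in 10 members, with 0 the other way. In the 10, the 10-day over 5-day level was 2-fold or more up in healthy and 2-fold or more down in spongy fruit. Of the 29539 transcripts, 191 were so and slightly more had the reverse, so the series as a whole had no such one-way turn. All 15 and all 10 belong to the 41 transcripts chosen as high in healthy 10-day fruit, so their direction against that library was set by the choice. Neither difference was tested, since each group is 1 library, and both rest on that library. With the libraries scaled to equal read totals 0 members were 2-fold or more higher in spongy fruit at 5 days, so the turn of the 15 depends on the scaling.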

How the results depend on the processing

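With 1 library per group no sample could be left out, and no paired analysis was possible because each group has a single library. Added values of 0.5 and 10 and TMM factors moved none of the counts, medians and standard deviations beyond the limits used (1.5 times, or 0.1 for a median). Setting other totals equal moved the line between level and lower. With the same total per library 2 members were level and 154 lay below the other 3 libraries in healthy 10-day fruit, 157 were at least 2-fold lower at 10 days in healthy fruit (median -2.98), 154 were higher in spongy 10-day fruit (median 1.77), and 0 were higher and 27 lower in spongy 5-day fruit (median -0.76). With the same total over locus 3 the corresponding values were 5 level, 149 below, 149 lower (median -2.19) and 154 higher (median 1.77). With the same total outside loci 2 and 3 they were 56 level, 25 below, 92 lower (median -0.96), 34 higher (median 0.38), and a median of -0.16 for the stages of spongy fruit. The count at least 8-fold above in healthy 10-day fruit was 36, 37 and 38 under these 3 scalings.

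The choice of members moved the counts too, as shares. Over every listed transcript of the locus 65 were at least 8-fold and 80 at least 2-fold above in healthy 10-day fruit and 12 below. In healthy fruit 102 were higher and 32 lower at 10 days (median -0.029), and in spongy fruit 14 were higher. At 10 days 32 were higher and 98 lower in spongy fruit (median 0.025), and at 5 days 6 were lower. Among the 100 most abundant 37 were at least 8-fold and 41 at least 2-fold above. In healthy fruit 45 were higher and 3 lower at 10 days (median 0.46), in spongy fruit 9 were lower (median -0.29), in spongy over healthy 10-day fruit 0 were higher and 41 lower (median -0.30), and 14 were higher at 5 days (median 0.16). When each comparison's members were chosen on the pair of libraries it does not use, 29 were above and 5 below the 5-day level in healthy fruit, and 24 were lower in spongy 10-day fruit (median -0.014). Chosen after the data were seen were members ranked without healthy 10-day fruit, of which 178 were the same. They held 20 of the 41, 24 at least 2-fold above, 28 above and 5 below the 5-day level in healthy fruit, 2 lower at 10 days in spongy fruit, 24 lower at 10 days (median -0.014) and 3 higher at 5 days in spongy fruit. Members ranked by level per length, also chosen afterwards, gave 12 lower at 10 days in healthy and 4 higher at 10 days in spongy fruit, 10 higher in spongy 10-day fruit and 4 below the other libraries in healthy 10-day fruit.

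At 4-fold 0 members were lower at 10 days in healthy or in spongy fruit and 0 were higher in spongy 5-day or 10-day fruit. By the authors' adjusted p, 0 were counted in any comparison. With a background minimum of 50, the share of all transcripts at least 2-fold apart was 21.2% at 5 days and 26.3% at 10 days for spongy over healthy fruit. For the stages it was 15.8% in healthy and 8.31% in spongy fruit. The library of healthy 10-day fruit had the lowest median, 51 reads per transcript over the whole series. Among the 200 members every difference of 4-fold or more in the 4 comparisons involves that library. Over all transcripts this was not so.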

Other observations

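The excess in healthy 10-day fruit was not limited to the 200 most abundant transcripts of the locus. Among the 449 others, 24 more were at least 8-fold above the highest other library, between ranks 225 and 622, by 8.73-fold to 113-fold with a median of 35.5-fold. Their levels elsewhere were low, with a median of 35.5 reads in healthy 5-day fruit and as few as 1, so the folds of the lowest of them are imprecise.

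All 65 such transcripts of locus 3 lay in 5 stretches of transcript numbers, joined where neighbours were at most 100 apart. In the stretch from 58 to 71 they were 6 of the 6 listed transcripts, from 396 to 421 11 of 11, from 1621 to 1642 7 of 9 and from 1757 to 1813 18 of 20. From 2247 to 2380 they were 23 of 55. The stretches were drawn after the values were seen. Of the 107 transcripts of the whole series at least 8-fold above in that library, 13 were of locus 2 and 29 of 26 other loci.

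Locus 2 had a different form. There healthy 10-day fruit lay at least 2-fold above the other 3 libraries in 143 of 178 transcripts with a mean level of at least 10, but at least 8-fold above in 13, and 8 were level. Of the 200 members of locus 3, 141 were level, 41 at least 8-fold above, 5 between 2-fold and 8-fold above and 13 mixed. The difference between the loci was not tested.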
